A study of Saccharomyces cerevisiae with 70 samples.

Results

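The 5 genes GTT1, GTT2, ECM4 (also called GTO2), GTO1 and GTO3 of the glutathione transferase family were followed in budding yeast exposed to hydrogen peroxide or menadione. They were taken by gene symbol from the probe annotation of 3 array tables and all 5 were found in each, among 5573 genes in the second series and 5549 in either table of the first. In peroxide I (0.24 mM hydrogen peroxide, 23 arrays at 21 times from 0 to 275 min) the labels give cells synchronised with alpha factor, the mating pheromone that holds cells in G1, and then released. In menadione I (2 mM, 14 arrays from 0 to 210 min) the labels give the Cy5 culture by its density and say nothing of synchrony or strain. Strain DBY8724, released from G1 arrest, was used in peroxide II (0 to 180 min, 17 arrays) and in menadione II (0 to 140 min, 16 arrays), with no dose in the labels. Each array compared RNA of 1 time point, labelled with Cy5, with that of an asynchronous reference, labelled with Cy3. The labels used here give no untreated course, no moment of oxidant addition and no deletion carried by the cells. Because every course came from a single culture, time points take the place of replicates, and p-values measure only the spread between them.

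Glutathione transferases join the thiol of glutathione to electrophilic compounds, or use glutathione to reduce them, and conjugates are carried into the yeast vacuole for breakdown. Gtt1 is a transferase associated with the endoplasmic reticulum and Gtt2 the second classical transferase of yeast. Ecm4, Gto1 and Gto3 are of the omega class, whose enzymes resemble glutaredoxins in using an active-site cysteine, and Gto1 is peroxisomal while the other two are cytosolic. Menadione is a quinone that forms a conjugate with glutathione and also cycles in the cell to give superoxide, whereas hydrogen peroxide is removed mainly by peroxidases and peroxiredoxins.

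Values are deposited log ratios of sample to reference, taken as log2 and centred on the median gene of each array. The base, centring and direction of the deposited ratios are not stated. Direction was judged from 12 mating pheromone and MATa genes at 0 min, whose mean was 0.96 and 1.48 in peroxide I and II and 1.77 and 1.52 in menadione I and II. Of these 12 genes, 8 and 10 lay above 0 in peroxide I and II and 12 and 10 in menadione I and II. Times were grouped into 0 to 21, 22 to 50, 51 to 90 and after 90 min, and each later window was set against the first one of the same course. A change is a log2 difference ± SE from limma with the p-value adjusted by Benjamini-Hochberg over all genes tested, at a threshold of 0.05. Comparisons within a course share the first window, and each holds any response to oxidant together with any cell cycle progress over the course. The labels give no release from arrest for menadione I, so the direction check takes arrest at 0 min there as an assumption. At 51 to 90 min the median change of the 8 M/G1 marker genes was -0.75 and -1.46 in peroxide I and II and 0.85 and -0.05 in menadione I and II. From 0 to 21 to 51 to 90 min the mean of G2/M markers went from -0.39 to -0.465 and from -0.79 to -0.25 in peroxide I and II. In menadione I and II it went from -0.89 to -0.10 and from -0.915 to -0.07. The G1/S mean went from 0.42 to -0.36, 0.16 to -0.11, 0.47 to -0.12 and 0.28 to -0.36 in the same order of courses. The part of cell cycle progress in the results was not tested.

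ECM4 was the member whose mRNA rose in all 4 courses. GTT1 rose in both peroxide courses and passed the test in neither menadione course. GTT2 passed the test in menadione I, GTO3 in peroxide I and GTO1 in no course.

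**Figure D1:**
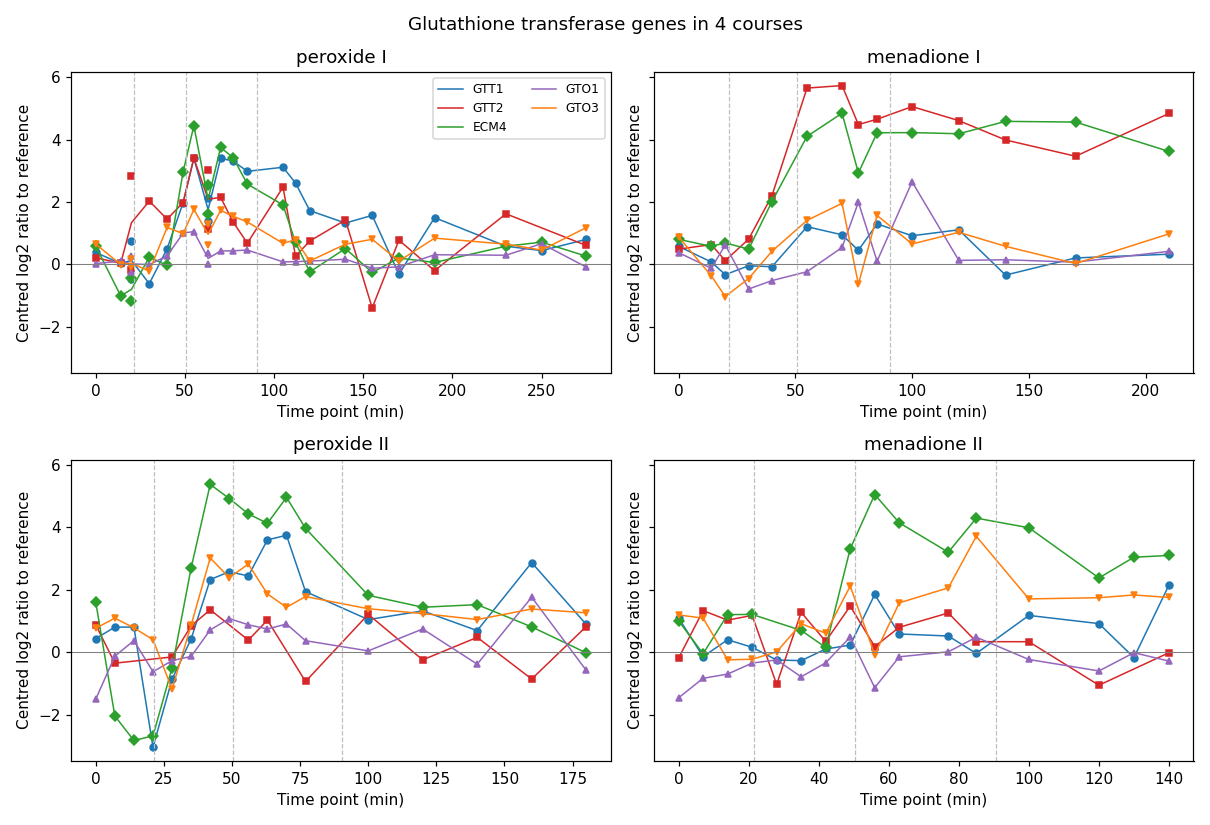
Centred log2 ratio to the reference (vertical axis) of the 5 genes against time point in min (horizontal axis), one panel per course. Points are arrays, lines join the mean at each time over arrays with a value, and dashed lines mark the window limits. ECM4 reached 4.44 to 5.37 in every course, and GTT2 reached 5.73 in menadione I against at most 1.48 in menadione II.

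ECM4 had the widest range of the family in peroxide II. Its log2 ratio was 1.60, -2.04, -2.83 and -2.68 at 0, 7, 14 and 21 min, and -0.50, 2.70, 5.37 and 4.92 at 28, 35, 42 and 49 min. It was 4.43, 4.13, 4.96 and 3.96 at 56, 63, 70 and 77 min, then 1.82, 1.44, 1.52, 0.81 and -0.02 at 100, 120, 140, 160 and 180 min. The 0 min array stood above the next 4 arrays, all arrays from 35 to 100 min lay above it, and all from 120 to 180 min lay below it. The lowest and highest values, at 14 and 42 min, came from the 2 arrays with the most missing spots of the series (24.3% and 26.9%). At 22 to 50 min ECM4 rose by 4.61 ± 0.90 (adjusted p = 0.00301, 4 arrays against 4), the 3rd highest change of 5497 genes, and it was the 1 member of 5 called higher, where 2.75% of all genes were. This early call was lost when only the arrays of the 2 windows were fitted (adjusted p = 0.307 at the same change) and with window limits at 14, 42 and 77 min (2.31, adjusted p = 0.386).

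At 51 to 90 min of peroxide II ECM4 rose by 5.86 ± 0.90 (adjusted p = 0.000113), the 2nd highest change of 5515 genes, with every array above every array of the first window. Members called higher were 2 of 5, against 8.96% of all genes. The arrays of 14, 21 and 28 min were scanned on another day than the other 14 arrays of the course. With scan day as a covariate the ECM4 change was 4.10 ± 0.78 (adjusted p = 0.00324), and on the first scan day alone, with 0 and 7 min as the first window, it was 4.59 ± 0.85 (adjusted p = 0.00524).

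The rise of ECM4 was followed by a fall. After 90 min ECM4 lay 3.25 ± 0.85 below its 51 to 90 min level (adjusted p = 0.0307), the 1 member of 5 called lower where 2.06% of genes were. That call was lost without any single array of 56, 63, 70, 140, 160 or 180 min, the changes then running from -3.36 to -2.97. Against the first 21 min the late change of 2.60 ± 0.85 did not pass (adjusted p = 0.18). No member was called higher there by limma, against 0.489% of genes, and 2 members had an unadjusted p under 0.05. Leaving out the 0 min array gave 3.63 with adjusted p = 0.0286, and the change also passed with scaled arrays (3.00, adjusted p = 0.0403) and with array weights (2.51, adjusted p = 0.0374). With scan day as a covariate it was 0.84 (adjusted p = 0.975), and on the first scan day alone 1.34 (adjusted p = 0.709).

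In peroxide I ECM4 rose and fell within the course. The log2 ratio was 0.58 at 0 min and -1.01 at 14 min, and the pair of arrays at 20 min gave -0.44 and -1.16. It was 0.23, -0.03 and 2.97 at 30, 40 and 49 min. From there it was 4.44 at 55 min, 2.53 and 1.62 in the pair at 63 min, and 3.75, 3.42 and 2.57 at 70, 77 and 85 min. The highest point therefore came at 55 min, and all 5 times of the 51 to 90 min window lay above the first window. ECM4 rose by 3.66 ± 0.60 at 51 to 90 min (adjusted p = 0.000266), with 3 of 5 members called higher against 6.54% of all genes. After 90 min its values were 1.91 at 105 min and between -0.26 and 0.71 at the other 9 times, a fall of 2.81 ± 0.45 from the window before (adjusted p = 0.000255), with 3 of 5 members called lower against 6.11% of genes. No member passed limma's test at 22 to 50 min, where 0.505% of all genes were called higher and ECM4 alone of the members had an unadjusted p under 0.05 (1.47 ± 0.67, adjusted p = 0.308). None passed after 90 min against the first window either, against 0.0721% of genes called higher and 1 member, GTT1, with an unadjusted p under 0.05.

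In menadione I ECM4 rose and stayed high to the last array. Its log2 ratio was 0.80, 0.58 and 0.69 at 0, 14 and 20 min and 0.49 and 2.02 at 30 and 40 min. It was 4.10, 4.84, 2.93 and 4.22 at 55, 70, 77 and 85 min. It was then 4.22, 4.19, 4.58, 4.56 and 3.62 from 100 to 210 min, all above every array of the first window. The change was 3.33 ± 0.48 at 51 to 90 min (adjusted p = 0.00125) and 3.54 ± 0.45 after 90 min (adjusted p = 0.000317). Of the 5 members, 2 were called higher in both windows, where 1.23% and 1.1% of all genes were. Between these windows ECM4 differed by 0.21 ± 0.42 (adjusted p = 0.936), and limma called no member lower (0% of genes), with no member at an unadjusted p under 0.05.

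In menadione II ECM4 was 1.00, -0.05, 1.20 and 1.21 over the first 21 min, then 0.70, 0.15 and 3.31 at 35, 42 and 49 min, with no value at 28 min. At 56, 63, 77 and 85 min it was 5.05, 4.14, 3.20 and 4.29, and at 100, 120, 130 and 140 min 3.99, 2.38, 3.04 and 3.10. Every array from 49 min on lay above the first window. ECM4 rose by 3.33 ± 0.90 at 51 to 90 min (adjusted p = 0.0272) as the 1 member of 5 called higher, against 2.17% of all genes. The call was lost with arrays scaled to the same spread (2.54, adjusted p = 0.13), with the other window limits (3.21, adjusted p = 0.102) and without the 7, 56, 63 or 85 min array (3.03 to 3.34, adjusted p from 0.0506 to 0.0795). After 90 min ECM4 was 2.28 ± 0.90 above the first window (adjusted p = 0.169, or 0.0253 with the arrays of these windows alone). No member was called higher there by limma, against 1.21% of genes called higher, and 2 members had an unadjusted p under 0.05. At 22 to 50 min limma called no member higher (0% of genes), and in the late window against the one before it called none lower (0.0361% of genes). No member had an unadjusted p under 0.05 in either comparison.

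The agents were compared within the second series as the difference between changes. ECM4 differed by 4.06 ± 1.32 at 22 to 50 min (adjusted p = 0.239), higher in peroxide II, and by 2.53 ± 1.27 at 51 to 90 min (adjusted p = 0.351). After 90 min the difference was 0.32 ± 1.24 (adjusted p = 0.941). With scan day as a covariate these became 3.19 (adjusted p = 0.266), 0.77 (adjusted p = 0.835) and, in the opposite direction, -1.44 (adjusted p = 0.608). No member passed in these windows or after 90 min, where 0%, 0.145% and 1.09% of all genes were called by limma in either direction. Members with an unadjusted p under 0.05 were ECM4 in the first of these and GTT1 in the second. Without the 28 min array of peroxide II the early ECM4 difference was 5.27 with adjusted p = 0.0194, and with the other window limits it was 2.35 and did not pass. ECM4 ratios at 51 to 90 min were 4.37 ± 0.44 in peroxide II and 4.17 ± 0.76 in menadione II (mean ± SD, n = 4 each), while those of the first window were -1.49 ± 2.09 and 0.84 ± 0.60. Menadione II was scanned on a day of its own, so agent and scan day cannot be told apart for such levels.

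GTT1, on the classical side of the family, was 0.44, 0.80 and 0.80 at 0, 7 and 14 min of peroxide II and -3.04 at 21 min. It was -0.87, 0.43, 2.33 and 2.58 from 28 to 49 min and 2.44, 3.60, 3.74 and 1.94 from 56 to 77 min. Later values were 1.04, 1.32, 0.69, 2.87 and 0.89. The 21 min array lay far below the other 3 of its window, and all 4 arrays of 51 to 90 min lay above every one of them. GTT1 rose by 3.18 ± 0.71 at 51 to 90 min (adjusted p = 0.00317), or by 2.25 with adjusted p = 0.0238 without the 21 min array. With scan day as a covariate it was 2.12 (adjusted p = 0.0904) and on the first scan day alone 2.31 (adjusted p = 0.0559), neither past the threshold.

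In peroxide I GTT1 was 0.38 and 0.03 at 0 and 14 min, with -0.48 and 0.74 in the pair at 20 min. It was -0.62, 0.50 and 1.98 from 30 to 49 min, 3.40 at 55 min, 1.39 and 2.12 in the pair at 63 min, and 3.40, 3.31 and 2.98 from 70 to 85 min. It rose by 2.79 ± 0.61 at 51 to 90 min (adjusted p = 0.0029). GTT1 then stood at 3.11, 2.61 and 1.72 at 105, 112 and 120 min, times at which ECM4 stood at 1.91, 0.70 and -0.24. In peroxide II the order was the other way at 100, 120 and 140 min, with GTT1 at 1.04, 1.32 and 0.69 and ECM4 at 1.82, 1.44 and 1.52. At 160 and 180 min of peroxide II GTT1 lay above ECM4 (2.87 and 0.89 against 0.81 and -0.02). These late contrasts were not tested. After 90 min GTT1 fell by 1.63 ± 0.46 from the window before (adjusted p = 0.0185). This fall did not pass with scaled arrays (-0.91, adjusted p = 0.373), with the other window limits (-1.28, adjusted p = 0.0605) or without the 55, 70 or 77 min array (-1.55 to -1.53).

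GTT1 values in the menadione courses stayed between -0.34 and 1.30 in menadione I and between -0.27 and 2.15 in menadione II. Its changes at 51 to 90 min were 0.87 ± 0.42 (adjusted p = 0.344) and 0.35 ± 0.71 (adjusted p = 0.836). The menadione I values are means of 2 GTT1 spots, whose changes at 51 to 90 min were 0.55 and 1.19. At 170 min these spots gave 1.43 and -1.01. The difference of the GTT1 change between the agents of the second series was 2.83 ± 1.01 at 51 to 90 min and did not pass (adjusted p = 0.168). With scan day as a covariate it was 1.77 (adjusted p = 0.501).

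GTT2 was the member with the largest change in menadione I. Its log2 ratio was 0.49, 0.64 and 0.12 at 0, 14 and 20 min and 0.81 and 2.21 at 30 and 40 min. At 55, 70, 77 and 85 min it was 5.65, 5.73, 4.48 and 4.65, and from 100 to 210 min 5.06, 4.61, 3.99, 3.47 and 4.83. All 11 later arrays lay above the first 3. GTT2 rose by 4.71 ± 0.49 at 51 to 90 min (adjusted p = 4.73e-05), the 6th highest change of 5548 genes, and after 90 min it was 3.97 ± 0.47 above the first window (adjusted p = 0.00017). At 22 to 50 min its change of 1.09 ± 0.58 over 2 arrays had adjusted p = 0.999. No member was called higher by limma in that window, where 0% of genes were and no member had an unadjusted p under 0.05.

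In menadione II the same gene gave no such values. Its log2 ratio was -0.19, 1.33, 1.03 and 1.18 over the first 21 min, -1.03, 1.27, 0.35 and 1.48 from 28 to 49 min, and 0.18, 0.80, 1.26 and 0.34 from 56 to 85 min. It was 0.34, -1.06 and -0.02 at 100, 120 and 140 min, with no value at 130 min. The windows overlapped throughout, and the changes were -0.19 ± 0.56 at 51 to 90 min (adjusted p = 0.888) and -1.08 ± 0.60 after 90 min (adjusted p = 0.367). ECM4 changed by 3.33 in both menadione courses at 51 to 90 min. The courses were measured on arrays of different design and normalised separately, so the 2 GTT2 changes were set side by side and their difference was not tested. GTT2 had 1 spot on each design, so no other spot was set beside it. Probe sequences were not used here, and whether the single spot of the second series reports GTT2 was not tested.

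Under peroxide GTT2 passed no test. In peroxide I its arrays at 20 min gave 2.84 and -0.17. It was 0.21 and 0.04 at 0 and 14 min and between 0.68 and 3.40 at the times of 51 to 90 min. The change in that window was 1.41 ± 0.64 (adjusted p = 0.152), and with the redo arrays of the repeated times alone it was 2.10 (adjusted p = 0.031). It also passed without the first 20 min array (1.91, adjusted p = 0.0388) and with the other window limits (2.07, adjusted p = 0.0418). Its late difference from that window, -1.23 ± 0.49 (adjusted p = 0.102), passed with the other limits (-1.50, adjusted p = 0.022) and without the 85 or the 105 min array (-1.55 and -1.45). In peroxide II 4 of 17 arrays had no GTT2 value, those of 14, 21, 49 and 70 min, and the other 13 lay between -0.94 and 1.36. The change at 51 to 90 min was -0.10 ± 0.72 (adjusted p = 0.948, 3 arrays against 2).

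GTO3 rose by 1.24 ± 0.30 in peroxide I at 51 to 90 min (adjusted p = 0.00526), its 5 times lying between 0.97 and 1.76 and the first 3 between 0.00 and 0.65. It fell by 0.85 in the late window against the one before (adjusted p = 0.0119). The 2 spots of GTO3 on that design differed. Over the first 21 min, 51 to 90 min was higher by 2.07 on the first spot and by 0.42 on the second, and with the second alone neither call passed (adjusted p = 0.389 and 0.259). The rise also missed the threshold with the other window limits (1.07, adjusted p = 0.0546), and the fall with scaled arrays (-0.52, adjusted p = 0.272). In the other courses the GTO3 changes at 51 to 90 min were 1.22 ± 0.64 in peroxide II (adjusted p = 0.212, or 0.0472 with the arrays of these windows alone), 1.25 ± 0.58 in menadione I (adjusted p = 0.326) and 1.37 ± 0.64 in menadione II (adjusted p = 0.232). None of these passed with all windows fitted together, and they moved with single arrays or settings. They ran from 0.42 to 1.40, from 0.65 to 1.82 and from 0.73 to 2.00 in the same order. The peroxide II value was 0.42 with scan day as a covariate (adjusted p = 0.808). The menadione II value was 0.73 without the 85 min array. The highest value in menadione II, 3.71 at 85 min, was the mean of 6.73 on one spot and 0.69 on the other.

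GTO1 passed no test in any course. Its changes at 51 to 90 min were 0.46 ± 0.23 in peroxide I (adjusted p = 0.206), 1.19 ± 0.45 in peroxide II (adjusted p = 0.0708), 0.31 ± 0.61 in menadione I (adjusted p = 0.879) and 0.64 ± 0.45 in menadione II (adjusted p = 0.466). In peroxide II it passed in 2 of 19 other settings, with array weights (1.14, adjusted p = 0.0442) and without the 14 min array (1.47, adjusted p = 0.0432). With scan day as a covariate the change was 1.21 (adjusted p = 0.2), and on the first scan day alone 1.54 (adjusted p = 0.126). Its highest values in menadione I, 1.99 at 77 min and 2.64 at 100 min, came from spots that differed: at 77 min they gave 4.92, 0.59 and 0.47, and at 100 min 2.60, 3.58 and 1.75. A further GTO1 spot of that design had a value on 2 of 14 arrays.

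**Figure D2:**
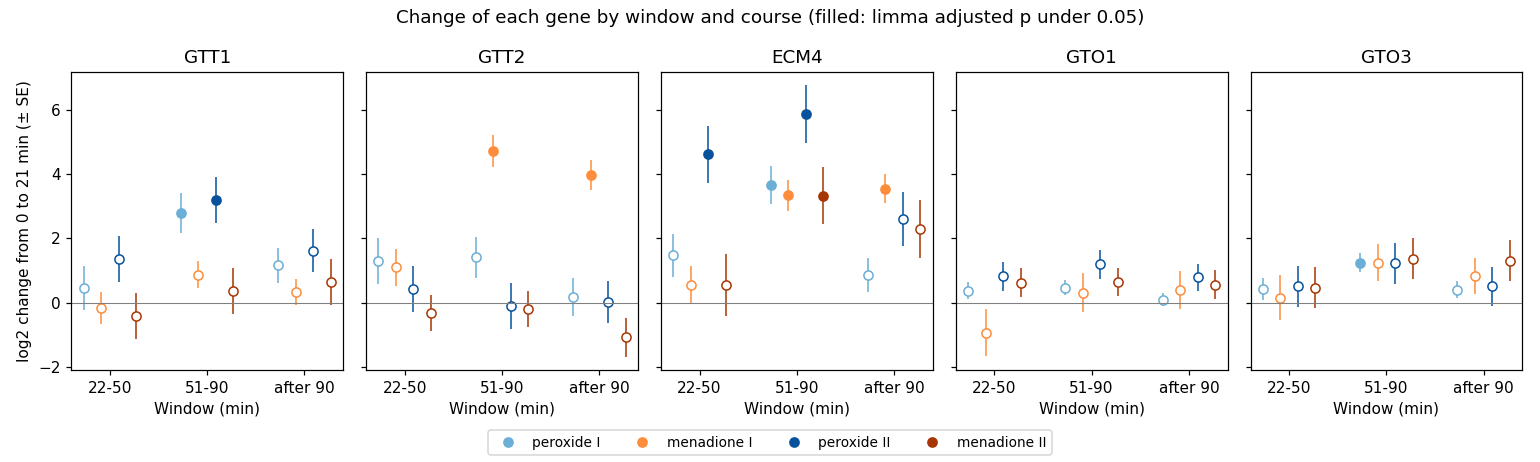
Change of each gene from the first 21 min (vertical axis, log2, with SE) by window in min (horizontal axis) and course (colour), filled where the limma adjusted p was under 0.05. ECM4 is filled in all 4 courses at 51 to 90 min, GTT1 in both peroxide courses, GTT2 in menadione I and GTO3 in peroxide I.

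**Figure D3:**
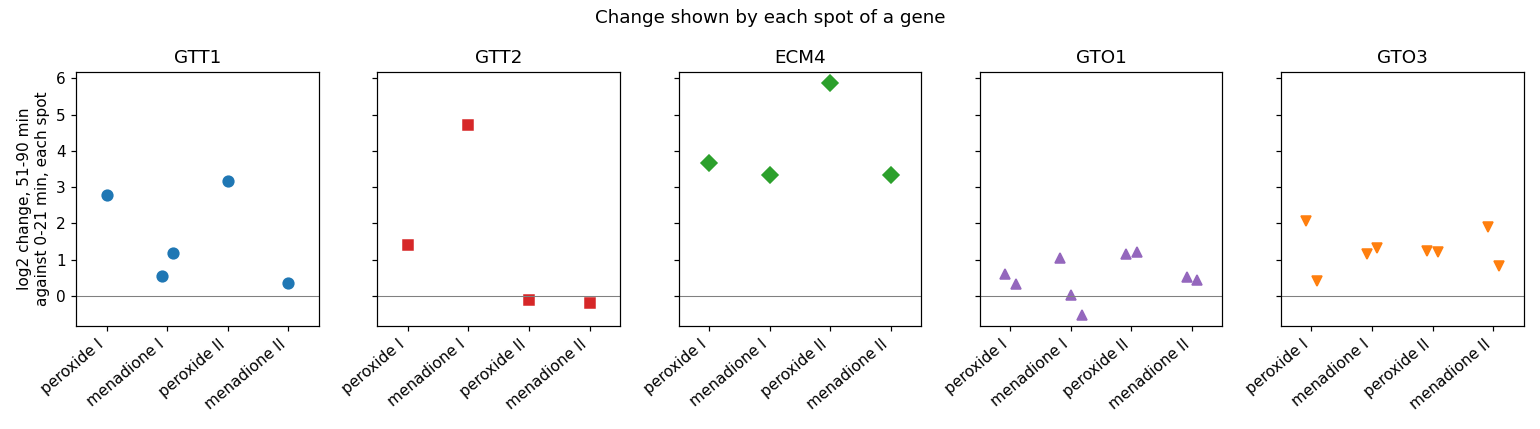
Change from the first 21 min to 51 to 90 min (vertical axis, log2) on each spot of a gene, by course (horizontal axis); each point is 1 spot, and a GTO1 spot of menadione I without values in the window is left out. The 2 GTO3 spots of peroxide I stand at 2.07 and 0.42, and GTT2 and ECM4 have 1 spot per design.

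Whether members changed by different amounts was asked with the difference between 2 members on the same array, 51 to 90 min against the first 21 min, in 10 pairs and 4 courses. Exact two-sided permutation tests gave an unadjusted p under 0.05 for 15 of 40, and after Benjamini-Hochberg over the 40 none passed, the smallest adjusted p being 0.0816. In 14 of these 15 tests the p was the smallest the numbers of time points allow, such as 0.0179 for 5 times against 3 and 0.0286 for 4 against 4 or 4 against 3. Pairs with GTT2 in peroxide II, 3 times against 2, could give no p below 0.1. With so few times, the lack of calls by the exact tests cannot decide whether members differed. A limma test of the same differences, which pools the spread over windows and was added after the data were seen, called 23 of 40 pairs. By that test ECM4 exceeded GTT1 by 2.68 ± 0.82 in peroxide II (adjusted p = 0.00675) and by 2.98 ± 0.82 in menadione II (adjusted p = 0.00314). In peroxide I it exceeded GTT1 by 0.87 ± 0.54, which did not pass (adjusted p = 0.17). In menadione I GTT2 exceeded ECM4 by 1.38 ± 0.52 (adjusted p = 0.0318) and GTT1 by 3.84 ± 0.47 (adjusted p = 1.05e-05).

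The median change of the 5 members at 51 to 90 min was 1.41 and 1.22 in peroxide I and II and 1.25 and 0.64 in menadione I and II. That of all genes lay between 0.00 and 0.05, where centring each array on its median gene holds it. Other glutathione genes were read from lists at 51 to 90 min against 0 to 21 min, where 6.54% and 8.96% of all genes were called higher in peroxide I and II and 1.23% and 2.17% in menadione I and II. Of 5 genes for glutathione synthesis and reduction, 4 rose in peroxide I, 3 in peroxide II, 2 in menadione I and 1 in menadione II. ZWF1, which supplies NADPH and is not itself a gene of glutathione synthesis, was among them in every course, at 2.51 ± 0.45, 2.92 ± 0.52, 2.44 ± 0.54 and 2.35 ± 0.52. In menadione II ZWF1 was the only gene of this list that rose past the threshold. GSH1, which makes the first step of glutathione synthesis, rose by 3.05 ± 0.77 in peroxide II (adjusted p = 0.00817) and by 2.30 ± 0.57 in menadione I (adjusted p = 0.0444). Of 3 glutathione peroxidase genes GPX2 rose in each course, by 4.24 ± 1.01, 3.81 ± 0.63, 4.83 ± 0.60 and 2.99 ± 0.63 in the same order. HYR1, the peroxidase that senses peroxide for Yap1 and the neighbour of GTT1 in the R64 annotation, rose in peroxide II by 1.28 ± 0.42 (adjusted p = 0.0371).

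Of 8 glutaredoxins 2, 3, 1 and 1 rose in peroxide I, peroxide II, menadione I and menadione II, GRX2 in each. Of 12 carriers and enzymes that move or break down glutathione and its conjugates, YOR1 and VMR1 rose in peroxide II. That is within 1 gene of the count that the share of all genes gives. GEX1 of this list fell by 2.19 ± 0.55 in peroxide I (adjusted p = 0.00822), and none passed in the menadione courses in this window. As background for the falls in these lists, 485 of 5547 genes were called lower in peroxide I and 277 of 5515 in peroxide II. In the glutathione-dependent disposal of aldehydes, 2 of 5 genes rose in peroxide I, 3 of 5 in peroxide II and none in either menadione course at 51 to 90 min, and SFA1 was called higher after 90 min of menadione II. Among 5 further proteins of the transferase fold, TEF4, a translation elongation factor subunit, fell by 1.50 ± 0.37 (adjusted p = 0.00681) and YGR201C rose by 1.13 ± 0.31 (adjusted p = 0.0132), both in peroxide I. Of 13 sulfate assimilation and cysteine genes 1, 2, 0 and 1 rose in the same order, each within 1 gene of the count that the share of all genes gives, and SAM1 fell in peroxide II. Taken singly, the calls of GEX1, TEF4, YGR201C and SAM1 are also within 1 gene of such a count for their lists. Yap1 target genes rose in 11, 9, 8 and 7 of 12 and general stress genes in 11, 10, 3 and 0 of 12.

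**Figure D4:**
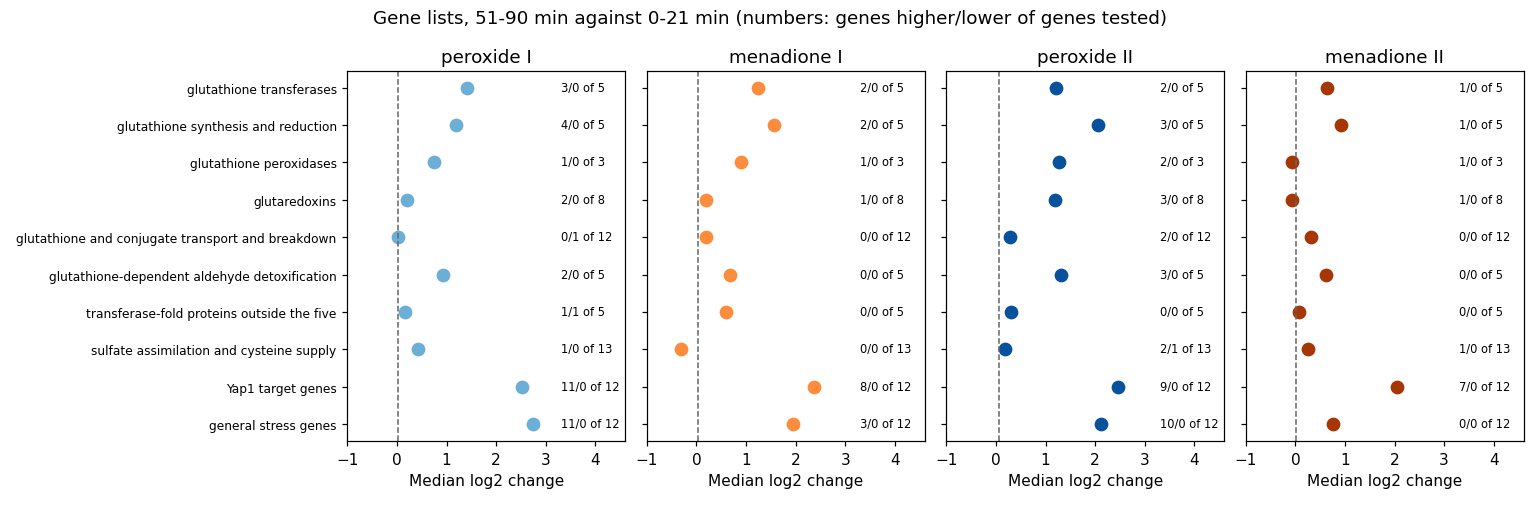
Median log2 change (horizontal axis) from the first 21 min to 51 to 90 min of the 5 transferases and 9 other gene lists, one panel per course, with the numbers of genes higher and lower of those tested. The dashed line is the median of all genes, and the Yap1 targets stand at a median of 2.04 to 2.53 in the 4 courses.

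The genes most like each member were ranked by Pearson's r over the 33 arrays of the second series. These arrays share a reference, a design and cell cycle progress, so the values are descriptions. Each r used the arrays where both genes had a value, and GTT2 had a value on 28 of the 33 and ECM4 on 32. The genes most like ECM4 were DDR48 (0.85), APE1 (0.85), OSI1 (0.84), YMR090W (0.84) and YNL134C (0.82). OSI1, called from its induction by oxidants, was also first over the 21 times of peroxide I (0.93) and the 14 of menadione I (0.97). GTT1 was most like PNC1 (0.76), a nicotinamidase gene of the general stress response, YJL068C (0.75), YCL042W (0.75), YJR096W (0.75) and NNR1 (0.74). In peroxide I these 5 gave r from 0.79 to 0.91 with GTT1, and in menadione I from 0.36 to 0.74.

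GTO3 was most like STF2 (0.72), EMI2 (0.70), STF1 (0.70), AYR1 (0.70) and the glycogen synthase gene GSY2 (0.70), and STF2 kept r of 0.84 in peroxide I and 0.87 in menadione I. GTT2 was most like HSU1 (0.71), its neighbour in the R64 annotation, with r of -0.04 in peroxide I and 0.18 in menadione I, and then YLL054C (0.69), YPR096C (0.68), NOP9 (0.66) and VID22 (0.65). In menadione I, where GTT2 rose, it was most like GRX2 (0.97) and TSA2 (0.96), a ranking added after the data were seen. The 5 genes most like GTO1, ENT3 (0.71), FMP52 (0.69), COQ4 (0.68), SRN2 (0.66) and GLC8 (0.66), had r of -0.22 to 0.77 over peroxide I and -0.29 to 0.19 over menadione I. Among the members themselves GTT2 and ECM4 had r of 0.13 in the second series, 0.64 in peroxide I and 0.92 in menadione I. For GTT1 and ECM4 r was 0.60, 0.79 and 0.53 in the same order.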

How the data were processed

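The authors' deposited values are log2 ratios as read here, of Cy5 sample to Cy3 reference per the labels. Log base, centring, direction, background correction, normalisation and genome build are not given in the sources used here. The tables held 9984 (peroxide I), 13056 (menadione I) and 14976 (second series) probes, of which 6625, 9565 and 6570 named 1 gene and none named several. The other 3359, 3491 and 8406 were unnamed and not used, and members had 7, 10 and 7 spots in the same order. Missing spots took 1.2% to 26.9% of an array, and the number of arrays limits the precision.

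Probes of a gene were averaged, arrays centred on the median gene, and arrays repeated at 20 and 63 min of peroxide I averaged. Genes needed values in 75% of arrays and in 2 arrays of each window. A model with 1 mean per window and course was fitted in limma 3.58.1 (R 4.3.3) for 19 comparisons, with Benjamini-Hochberg over all genes and a threshold of 0.05, and the first and second series were fitted apart. Member pairs were compared by exact permutation over all regroupings of the time points. Named genes were the 5 members, up to 3 called genes of a list with the largest change, and the 5 genes most correlated with each member. Members and lists were chosen with earlier results of these data known. Alternatives added after the data were seen are named as such. The method was tested on simulated data with noise drawn independently for each array. That setting lacks the trends over time within a window that these courses show. Sequences of the members were not used here, so promoters and proteins were not compared.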

Additional observations from a re-analysis of the deposited data

Results flagged for a closer look

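Of 60 groups of 4 to 10 arrays of 1 member, 6 held an array far from the others by Dixon's criterion at 95%, which chance passes in about 1 of 20 groups. GTT1 was -3.04 at 21 min of peroxide II, against 0.44 to 0.80 on the other 3 arrays of its window, and 2.87 at 160 min of peroxide II against 0.69 to 1.32. GTT2 was 2.84 on the first of the arrays at 20 min of peroxide I, against -0.17 to 0.21. ECM4 was 1.91 at 105 min of peroxide I, against -0.26 to 0.71, and -0.049 at 7 min of menadione II, against 1.00 to 1.21. GTO1 was 2.64 at 100 min of menadione I, against 0.07 to 0.42.

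In 2 cases every array of a window lay on opposite sides of the first-window mean in the 2 menadione courses. Every member and later window was looked at in each pair of courses that shared an agent or a series. How many of all genes split in this way was not counted. GTT2 after 90 min differed by 5.06, from a mean of 3.97 above in menadione I to -1.08 in menadione II. GTO1 at 22 to 50 min differed by -1.56, from -0.94 in menadione I over 2 arrays to 0.61 in menadione II. Neither difference was tested, since the courses lie on arrays of different design.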

How the results depend on the processing

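Counts of members past the threshold kept within 1.5 times under all but these settings. At 22 to 50 min of peroxide II the count was 0 in place of 1 with the windows' arrays alone and with other window limits. At 51 to 90 min of peroxide II it was 1 in place of 2 with scan day as a covariate and on the first scan day alone. After 90 min of peroxide II it was 1 in place of 0 with arrays scaled to the same spread and with array weights. In menadione II it was 0 in place of 1 at 51 to 90 min, with scaled arrays and with other limits, and 1 in place of 0 after 90 min with the windows' arrays alone. For the late fall in peroxide I it was 1 in place of 3 with scaled arrays. Leaving out single arrays gave counts from 0 to 1 at 51 to 90 min of menadione II, after 90 min of peroxide II against either earlier window, and for the agents' difference at 22 to 50 min. Among member pairs 23 passed with limma, and 19 with limma on scaled arrays, in place of 0. No called change reversed its sign. Replicate numbers were given in order of accession and pair no samples. With a replicate block of matched times, the 14 times both second-series courses share, the ECM4 difference between agents at 22 to 50 min was 5.27 (adjusted p = 0.144) and no member was called. Counts over all genes moved more, from 6 to 693 at 22 to 50 min of peroxide II (216 as reported) and from 13 to 240 at 51 to 90 min of menadione I (106 as reported). The comparison of member sequences was not run. Signal over background was not used here.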
